A study of Rattus norvegicus with 8 samples.

Results

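A group of 10 genes that take up, sense, store, export and release iron was followed in rat soleus over short changes in weight bearing: Tf, Tfrc, Slc11a2, Aco1, Ireb2, Fth1, Ftl1, Cp, Hmox1 and Hmox2. Every probe set whose only gene symbol in the platform annotation is 1 of these 10 was taken, which gave 13 probe sets of 7 genes, out of 7006 single-symbol probe sets of 4736 genes. The other 3 genes, Fth1, Ftl1 and Tf, have only probe sets that the annotation gives to several genes, and those 6 probe sets are described apart. The genes were chosen by their known roles and on earlier results of the same arrays, in which Tfrc and Cp were higher in unloaded than in control soleus and Hmox1 was higher in walked than in unloaded soleus. The comparisons of the 10 genes are therefore given as a description, with no p-value printed, and nothing is inferred from how many of them changed. Where a probe set of these genes is said to be called (limma, adjusted p under 0.05), that too is a description.

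The soleus is a slow postural muscle of the hindlimb, and all rats were female. Walked rats (2 pools) had 12 h of hindlimb unloading, after which they walked on a treadmill for 2 h in 30 min bouts with 30 min of cage activity between them over 4 h. Unloaded rats (3 pools) had the 12 h of unloading alone, and control rats (3 pools) moved about their cages for 12 h. Each of the 8 arrays held pooled RNA from 8 to 10 rats, so the spread is that between pools and not between animals. Walked and unloaded rats also differ by the extra hours and the cage activity after unloading, which cannot be told apart from the walking. The labels used here state neither strain nor age.

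A cell takes up iron when transferrin (Tf), the iron carrier of plasma, binds the transferrin receptor (Tfrc) and is drawn into endosomes, from which the metal transporter Slc11a2 (DMT1) moves iron into the cytosol. Iron regulatory proteins 1 and 2 (Aco1 and Ireb2) bind iron-responsive elements when iron is scarce, which protects the Tfrc transcript from decay and holds back translation of the ferritin chains Fth1 and Ftl1, the iron store. Ceruloplasmin (Cp) is a copper ferroxidase that helps iron leave cells, and the heme oxygenases Hmox1, which is inducible by stress, and Hmox2, which is constitutive, break heme down and free its iron. Muscle holds much of its iron in myoglobin and in the heme and iron-sulfur proteins of mitochondria.

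Tfrc, Ireb2 and Cp are the genes of the group with a probe set on which all unloaded and walked arrays lay above all control arrays. The bases just before the transcription start are shown for these genes. They are 250 bases each from RefSeq on rat assembly GRCr8, 5′ to 3′ along the gene's strand, at chr11:81690319-81690568 on the minus strand (Tfrc), chr8:64160838-64161087 on the plus strand (Ireb2) and chr2:104368420-104368669 on the plus strand (Cp). Capitals mark a match to a searched motif.
Tfrc: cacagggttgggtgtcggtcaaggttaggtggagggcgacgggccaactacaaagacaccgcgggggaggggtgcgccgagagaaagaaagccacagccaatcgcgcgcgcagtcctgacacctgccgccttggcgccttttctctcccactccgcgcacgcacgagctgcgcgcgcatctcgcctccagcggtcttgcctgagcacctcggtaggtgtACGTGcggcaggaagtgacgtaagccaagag
Ireb2: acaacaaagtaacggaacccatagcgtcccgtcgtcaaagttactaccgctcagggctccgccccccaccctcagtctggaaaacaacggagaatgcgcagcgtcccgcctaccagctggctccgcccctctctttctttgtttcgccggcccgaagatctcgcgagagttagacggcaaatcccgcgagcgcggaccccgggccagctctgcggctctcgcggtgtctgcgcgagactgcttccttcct
Cp: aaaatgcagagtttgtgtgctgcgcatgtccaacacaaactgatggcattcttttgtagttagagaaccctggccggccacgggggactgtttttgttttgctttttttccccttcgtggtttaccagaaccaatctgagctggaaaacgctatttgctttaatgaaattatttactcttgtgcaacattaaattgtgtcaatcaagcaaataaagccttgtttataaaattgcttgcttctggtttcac
Motifs were searched on both strands, ACGTG (the core bound by hypoxia-inducible factors and other factors), TGACNNNGC (antioxidant response), TGANTCA (AP-1; it can overlap the antioxidant motif) and GAANNTTC (a heat shock unit). Tfrc held 1 match, ACGTG starting 31 bases before the start site. Of 33469 rat promoter windows of the same length, 16.6% held ACGTG, 10.1% TGACNNNGC, 6.34% TGANTCA and 7.23% GAANNTTC. Ireb2 and Cp held none of them in these windows, and Aco1 held 1 match to GAANNTTC starting 165 bases before its start. Of 2 entries for Hmox2, 1 held ACGTG starting 11 bases and TGACNNNGC starting 95 bases before its start, and the entries of Slc11a2 and Tf held no match. Of the 10 genes, 7 have an entry in the promoter table. A match in these letters is a description and says nothing of binding.

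Values are MAS5 signal, a linear intensity per probe set. Array medians ran from 37.1 to 42.4, and log2 signals correlated across probe sets at 0.949 to 0.963 within groups and 0.913 to 0.945 between groups. Probe sets with a mean signal under 25.8 over all arrays were not tested, which left 5244 of 8740. Slow-fibre marker probe sets summed to 42284.9 to 48927.6 in walked, 31908.9 to 45761.4 in unloaded and 27879.2 to 34489.7 in control soleus, and 15 of the 16 were bright enough to test. Of the 13 probe sets of iron genes 11 passed. The nearest to the threshold were a Slc11a2 probe set with a mean of 25.4, just outside, and a Cp probe set with 40.7, inside. Tfrc (control mean 8.90), a Cp probe set (16.7) and Ireb2 (24.6) had control means below the threshold and passed only through their walked and unloaded arrays, where they are high.

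**Figure D1:**
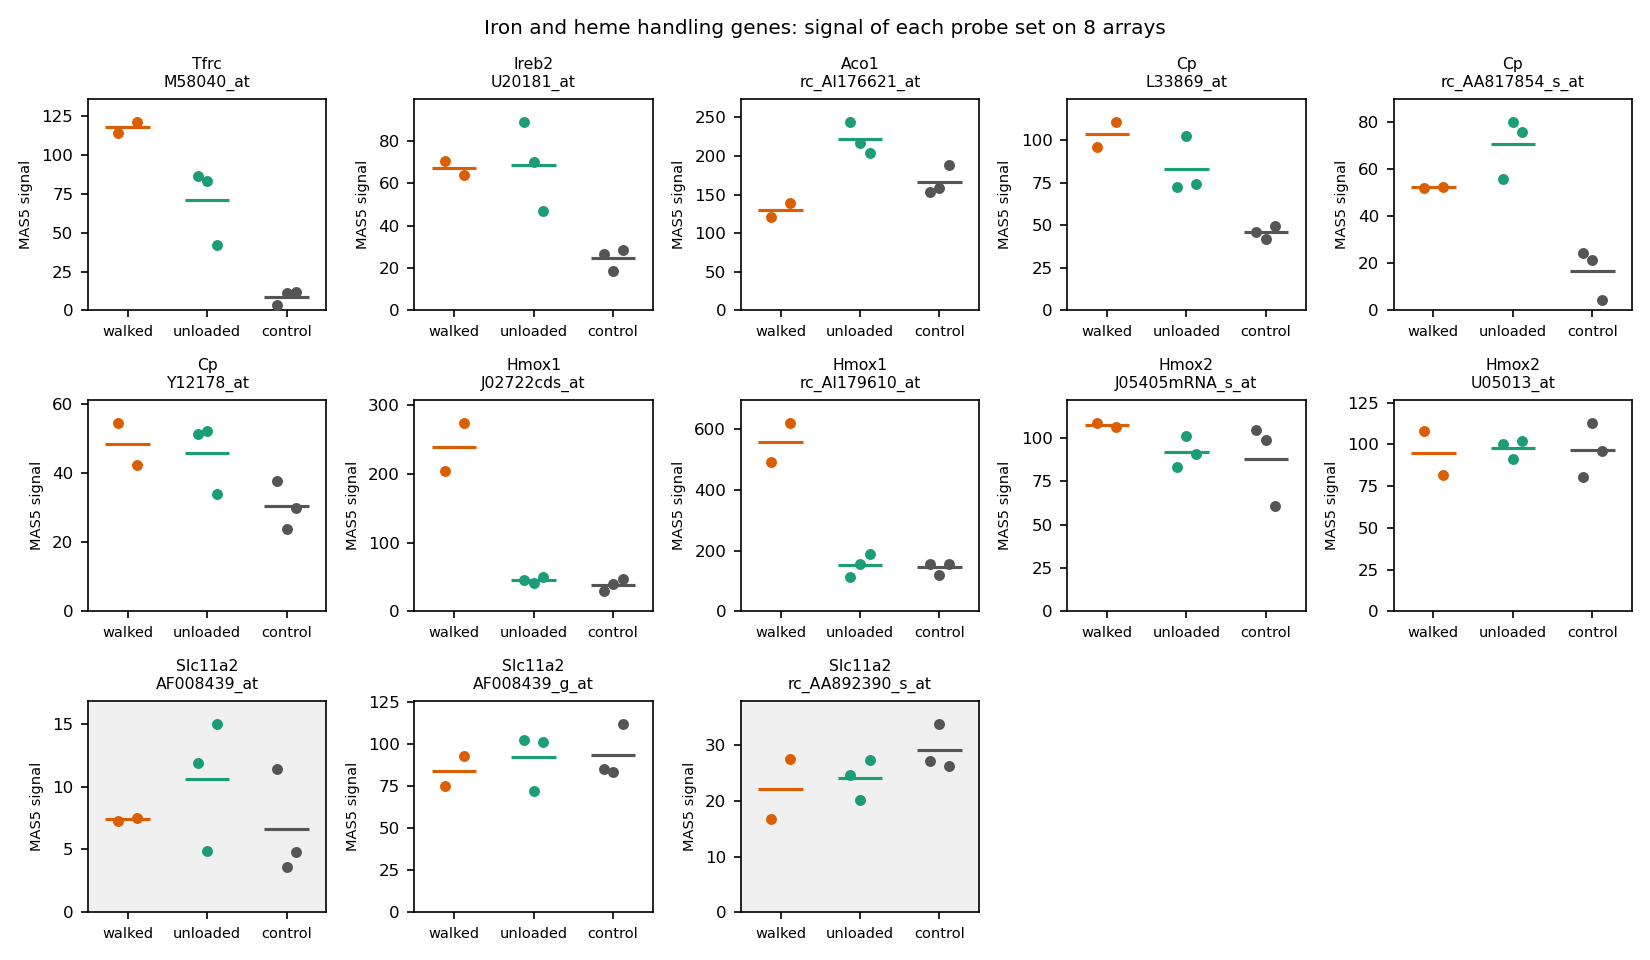
MAS5 signal (linear, axis from 0) of the 13 probe sets of the 7 genes with a single symbol, 1 point per array and a bar at the group mean, for 2 walked, 3 unloaded and 3 control pools. Grey panels were too dim to test; Tfrc, Ireb2 and 2 of the 3 Cp probe sets have all control arrays below all others, and both Hmox1 probe sets have the walked arrays alone above the rest.

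The first comparison asked what 12 h without weight bearing changed. Transcripts for iron uptake (Tfrc), iron sensing (Ireb2) and iron oxidation for export (Cp) had higher signal in unloaded than in control soleus. The Cp probe set Y12178_at was the exception, with overlapping arrays in these groups, as were those of Hmox1, Hmox2 and Slc11a2. Of the 11 probe sets, 4 were called higher and 0 lower (limma, adjusted p under 0.05), where 3.99% of all tested probe sets were called higher and 3.32% lower. In 5 of the 11 the arrays of the groups did not overlap, against 26.4% of all tested probe sets. These counts describe genes chosen on this comparison, and 3 of the 4 called probe sets passed the signal threshold only through the groups where they are high, so nothing is read from them. The median log2 fold change was 0.42 over the 11 and -0.08 over all tested probe sets.

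Tfrc had a signal of 114.1 and 121.4 in walked pools, 86.7, 83.4 and 41.9 in unloaded pools, and 3.7, 11.4 and 11.6 in control pools. The 3 groups did not overlap, and unloaded pool 3 was the lowest of its group. The log2 fold change of unloaded against control was 3.04 ± 0.45 (SE), with means of 70.7 ± 25.0 in unloaded and 8.90 ± 4.50 in control pools (SD, n = 3 each), and it was 2.55 without control pool 1. That control array lay under the floor of 4.10 set before taking logs, so the size of the fold is imprecise. For walked against control it was 3.85 ± 0.50, and for walked against unloaded 0.81 ± 0.50, which was not called. The walked arrays did lie above the unloaded ones, by 1.67 times in the means.

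Slc11a2, the transporter that moves endosomal iron onward, was measured by 3 probe sets, of which 1 was bright enough to test. On that probe set (AF008439_g_at) the signal was 75.3 and 92.9 in walked, 102.5, 72.0 and 101.4 in unloaded, and 85.3, 83.3 and 112.1 in control pools. The groups overlapped throughout, and the log2 fold changes were -0.03 ± 0.21 for unloaded against control, -0.12 ± 0.23 for walked against unloaded and -0.15 ± 0.23 for walked against control. The untested probe sets overlapped too, at 7.3 to 7.5 in walked, 4.9 to 15.0 in unloaded and 3.6 to 11.4 in control pools (AF008439_at), and at 16.7 to 27.5 in walked, 20.1 to 27.3 in unloaded and 26.2 to 33.8 in control pools (rc_AA892390_s_at).

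Ireb2, the sensor that is degraded when iron is plentiful, had 70.5 and 63.7 in walked, 89.1, 69.9 and 46.7 in unloaded, and 26.7, 18.8 and 28.3 in control pools. All walked and unloaded arrays lay above all control arrays, and walked and unloaded arrays overlapped. The log2 fold change was 1.45 ± 0.30 for unloaded against control and 1.47 ± 0.33 for walked against control, both called, and 0.02 ± 0.33 for walked against unloaded. The first of these was no longer called without unloaded pool 1 (1.24) or 2 (1.41), and the second without control pool 2 (1.29), walked pool 1 (1.40) or walked pool 2 (1.54). Ireb2 passed the signal threshold only through the groups where it is high, so both calls are a description.

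Aco1, which is cytosolic aconitase when it holds an iron-sulfur cluster and iron regulatory protein 1 when it does not, had 120.5 and 139.6 in walked, 244.4, 216.4 and 203.5 in unloaded, and 152.9, 157.9 and 187.6 in control pools. No groups overlapped: unloaded arrays were the highest and walked arrays the lowest. The difference of walked against unloaded, -0.77 ± 0.17 on the log2 scale, was called, while 0.42 ± 0.15 for unloaded against control and -0.35 ± 0.17 for walked against control were not. The call was lost without unloaded pool 1 (-0.69) or 2 (-0.78) or walked pool 1 (-0.66) or 2 (-0.87).

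Cp, the ferroxidase, was measured by 3 probe sets, and all 3 had positive log2 fold changes in unloaded against control soleus. On the brightest (L33869_at) the signal was 96.2 and 111.0 in walked, 72.5, 102.7 and 74.4 in unloaded, and 45.9, 41.7 and 49.9 in control pools. Control arrays lay below all others, with log2 fold changes of 0.85 ± 0.20 for unloaded against control and 1.18 ± 0.23 for walked against control, both called, and 0.33 ± 0.23 for walked against unloaded, not called. The first was lost without control pool 1 (0.85), control pool 2 (0.78) or unloaded pool 2 (0.68), and the second without walked pool 1 (1.28) or 2 (1.08). Cp was chosen on unloaded against control soleus, so its calls are a description only.

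A second Cp probe set (rc_AA817854_s_at) had 52.0 and 52.5 in walked, 55.7, 80.1 and 75.8 in unloaded, and 24.3, 21.2 and 4.6 in control pools. The unloaded arrays were the highest and the control arrays the lowest, with no overlap. Its log2 fold change was 2.39 ± 0.54 for unloaded against control, called, and 1.97 ± 0.61 for walked against control, not called. Control pool 3 set much of the size: without it the values were 1.62 and 1.21. The first call was lost without unloaded pool 1 (2.55), 2 (2.29) or 3 (2.33), and the second comparison was called without control pool 1 (2.41) or 3. This probe set passed the signal threshold only through the groups where it is high, so its calls are a description. On the third probe set (Y12178_at) the signal was 54.5 and 42.2 in walked, 51.2, 52.1 and 34.0 in unloaded, and 37.6, 23.9 and 29.7 in control pools, with log2 fold changes of 0.59 ± 0.30 for unloaded against control and 0.69 ± 0.34 for walked against control, neither called. Walked arrays of this probe set lay above control arrays, and unloaded arrays overlapped both.

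The next question was what differed between walked and unloaded soleus. Hmox1 signal was several times higher after walking on both of its probe sets, Aco1 was lower, and Tfrc, Ireb2 and Cp did not pass the test against unloaded soleus. Of the 11 tested probe sets 2 were called higher and 1 lower, where 2.73% of all tested probe sets were called higher and 1.47% lower. In 6 of the 11 the arrays did not overlap, against 35.1% of all. The median log2 fold change was 0.10, and -0.05 over all tested probe sets. Hmox1 was chosen on this comparison, so nothing is read from these counts.

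On the brighter Hmox1 probe set (rc_AI179610_at) the signal was 492.6 and 621.5 in walked, 114.1, 156.1 and 190.1 in unloaded, and 156.9, 121.4 and 157.0 in control pools. On the other (J02722cds_at) it was 203.6 and 274.2 in walked, 46.0, 40.9 and 49.5 in unloaded, and 29.0, 39.3 and 47.1 in control pools. On both, the walked arrays stood above all others, while unloaded and control arrays overlapped. The log2 fold changes of walked against unloaded were 1.88 ± 0.23 and 2.38 ± 0.26, those of walked against control 1.94 ± 0.23 and 2.65 ± 0.26, and those of unloaded against control 0.06 ± 0.21 and 0.27 ± 0.23. Leaving out each array in turn gave 1.69 to 2.05 and 2.17 to 2.60 against unloaded soleus. Hmox1 was chosen on this comparison, so its calls are a description only.

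Hmox2, the constitutive heme oxygenase, was measured by 2 probe sets and was called on neither in any of the 3 comparisons. The signal on U05013_at was 107.9 and 81.8 in walked, 100.4, 91.1 and 102.1 in unloaded, and 80.6, 113.0 and 96.0 in control pools, so all groups overlapped. On J05405mRNA_s_at it was 109.0 and 106.5 in walked, 83.5, 101.1 and 91.1 in unloaded, and 104.6, 99.2 and 60.6 in control pools, with the walked arrays above all others by a small margin. The log2 fold changes of walked against unloaded were -0.06 ± 0.21 and 0.24 ± 0.25, and those of unloaded against control 0.03 ± 0.19 and 0.10 ± 0.22. On J05405mRNA_s_at the value for unloaded against control turned to -0.15 without control pool 3.

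**Figure D2:**
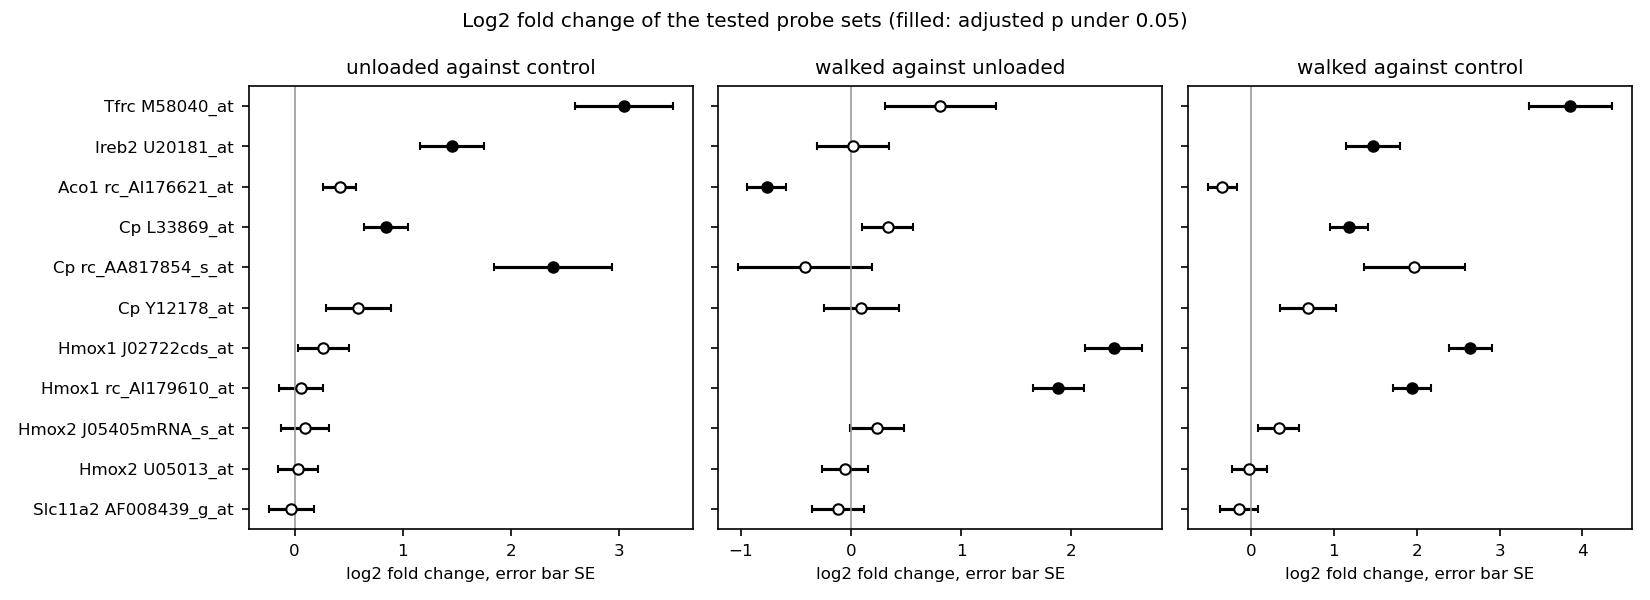
Log2 fold change (x axis) with its standard error for the 11 tested probe sets for the 3 comparisons, 1 panel each; filled points had an adjusted p under 0.05. Tfrc, Ireb2 and Cp L33869_at are filled in both comparisons with control soleus, and Hmox1 in both comparisons of walked soleus.

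The third comparison set walked against control soleus, and shares its arrays with the other comparisons. Of the 11 tested probe sets 5 were called higher (Tfrc, Ireb2, 1 of Cp and both of Hmox1) and 0 lower, where 4.46% of all tested probe sets were called higher and 4.61% lower. In 9 of the 11 the arrays did not overlap, against 43.0% of all. The count was 3 without walked pool 1 or walked pool 2, and in unloaded against control soleus leaving out unloaded pool 1 left 2 and leaving out unloaded pool 2 left 1. Tfrc and Ireb2 passed the signal threshold only through the groups where they are high, so nothing is read from these counts.

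Ferritin and transferrin were read only by probe sets that match several genes, so these signals cannot be assigned to Fth1, Ftl1 or Tf. They lie outside the choice of single-symbol probe sets, are described after their values were seen, and are not in the counts above. The probe set annotated to Fth1 and a pseudogene of it (rc_AI169802_at) had 2129.8 and 2520.8 in walked, 2682.7, 2928.0 and 2988.4 in unloaded, and 2617.0, 2859.3 and 3126.2 in control pools. Unloaded and control arrays overlapped, walked arrays were the lowest, and the log2 fold changes were 0.00 ± 0.12 for unloaded against control and -0.30 ± 0.13 for walked against unloaded.

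The probe sets annotated to Ftl1, its copies and Ripor2 had lower signal in unloaded than in control soleus and higher signal in walked than in unloaded soleus. On rc_AI231807_at the signal was 1731.8 and 1864.0 in walked, 705.2, 884.6 and 717.4 in unloaded, and 1146.1, 1258.9 and 1455.4 in control pools. On rc_AI231807_g_at it was 1257.0 and 1251.6 in walked, 372.8, 324.9 and 405.3 in unloaded, and 626.8, 648.4 and 844.4 in control pools. On both, walked arrays were the highest and unloaded arrays the lowest, with no overlap between groups. The log2 fold changes were -0.74 ± 0.14 and -0.93 ± 0.15 for unloaded against control, 1.23 ± 0.15 and 1.78 ± 0.17 for walked against unloaded, and 0.49 ± 0.15 and 0.84 ± 0.17 for walked against control.

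Of the 3 probe sets annotated to Tf and Srprb, D38380_at had 136.1 and 138.4 in walked, 173.1, 157.8 and 207.3 in unloaded, and 287.9, 257.4 and 309.4 in control pools. Walked arrays were the lowest and control arrays the highest, with log2 fold changes of -0.67 ± 0.15 for unloaded against control and -1.05 ± 0.17 for walked against control. The other probe sets had smaller differences, and their groups overlapped. On D38380_g_at the log2 fold changes were -0.14 ± 0.17 for unloaded against control and -0.26 ± 0.19 for walked against control, and on U31866_g_at they were -0.08 ± 0.37 and -0.53 ± 0.41. In walked against control soleus U31866_g_at rested on single walked arrays, at -1.21 without walked pool 1 and 0.15 when walked pool 2 was left out. For D38380_g_at leaving out walked pool 1 gave -0.46 and leaving out walked pool 2 gave -0.06.

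**Figure D3:**
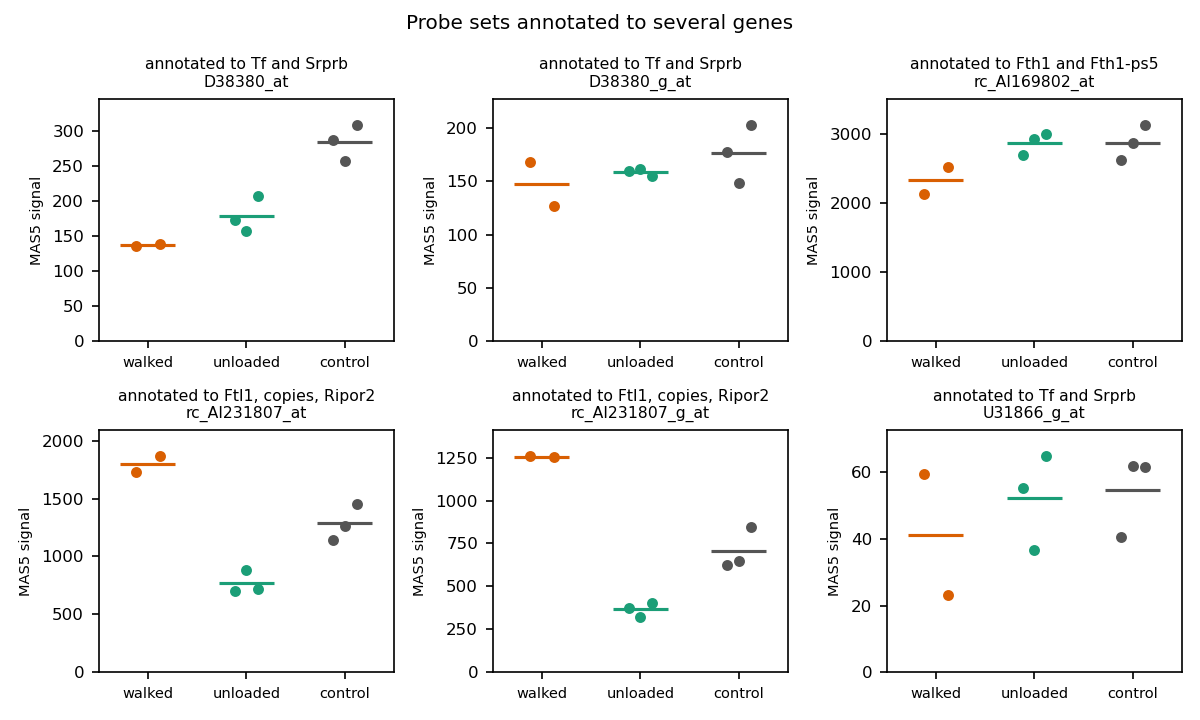
MAS5 signal (linear, axis from 0) of the 6 probe sets annotated to several genes, among them Tf, Fth1 or Ftl1, 1 point per array and a bar at the group mean. Both probe sets annotated to Ftl1, its copies and Ripor2 are lowest in unloaded pools (324.9 to 884.6) and highest in walked pools (1251.6 to 1864.0), while the probe set annotated to Fth1 and its pseudogene spans 2129.8 to 3126.2 over all arrays.

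Whole muscle also holds blood and other cells, and in pooled tissue fewer cells of a type and less RNA per cell cannot be told apart. As background for the marker counts below, 3.99% of all tested probe sets were called higher and 3.32% lower in unloaded against control soleus. The shares were 2.73% and 1.47% in walked against unloaded, and 4.46% and 4.61% in walked against control soleus. Red cell markers (5 genes, 7 probe sets, 5 bright enough to test) summed to 4435.9 to 6148.0 in walked, 5908.9 to 8337.1 in unloaded and 6243.8 to 7482.3 in control pools, and 0 were called in any comparison (limma; at an unadjusted p under 0.05, 1 was higher and 1 lower in walked than in control soleus). Macrophage and leukocyte markers (10 genes, 18 probe sets, 11 tested) summed to 1264.6 to 1369.2 in walked, 1361.9 to 1612.3 in unloaded and 1561.3 to 1712.0 in control pools, with 1 called higher in unloaded against control (Cd48) and 1 lower in walked against control (Cd74). Liver makes most plasma Tf and Cp: of 24 liver marker probe sets 20 were too dim to test, among them all 4 of albumin, and the sums were 362.4 to 369.3 in walked, 333.6 to 466.4 in unloaded and 387.9 to 450.7 in control pools. Schwann cell markers (6 genes, 7 of 10 probe sets tested) summed to 836.7 to 842.5 in walked, 842.8 to 915.4 in unloaded and 898.2 to 1030.3 in control pools, with Prx lower in walked against unloaded (-1.23) and Cnp lower in walked against control (-1.32).

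Some markers of connective tissue and smooth muscle were called in comparisons where iron genes were called, and no endothelial marker was called in any. Fibroblast markers (7 genes, 17 of 21 probe sets tested) summed to 12095.0 to 12550.3 in walked, 14678.1 to 21205.6 in unloaded and 11327.6 to 17314.6 in control pools. In unloaded against control soleus 5 of them were called higher, 4 probe sets of the proteoglycan Dcn (1.27 to 2.70) and 1 of Lum (0.82), and in walked against control soleus 2 of Dcn were higher (1.51 and 2.45) and 3 of the collagen genes Col1a1 and Col1a2 lower (-1.33 to -1.03). In walked against unloaded soleus 1 of Dcn (-1.19) and 1 of Col1a1 (-0.94) were lower. The fibroblast markers did not move as a set in unloaded against control soleus. Their median log2 fold change there was -0.05, and every Col1a1 and Col1a2 probe set had a lower mean in unloaded soleus, none called. Smooth muscle markers (6 genes, 10 of 11 probe sets tested) summed to 5450.9 to 6652.8 in walked, 4482.4 to 5388.6 in unloaded and 5082.1 to 5589.0 in control pools, with 3 lower in unloaded against control, Acta2 (-2.42) and both of Tagln (-1.13 and -0.96). Much of this sum is Des (X73524_at), with means of 3550.3 in walked, 3020.4 in unloaded and 2367.0 in control pools. Des was thus higher in unloaded than in control soleus, where Acta2 and Tagln were lower. The median log2 fold change of the list there was -0.54. Adipocyte markers (6 of 8 tested) summed to 1580.9 to 2022.6 in walked, 1715.6 to 1953.2 in unloaded and 1654.0 to 2023.0 in control pools, with Fabp4 higher in unloaded against control (1.52). No other was called there, and the median log2 fold change was 0.04. Cfd had means of 134.5 in unloaded and 194.9 in control pools, and Lipe U40001_at 288.8 and 241.4. Much of the sum is 1 Lep probe set (D49653_s_at), with means of 1017.6 in walked, 862.6 in unloaded and 1046.4 in control pools. Endothelial markers (4 of 6 tested) summed to 570.2 to 650.8 in walked, 561.9 to 633.1 in unloaded and 608.0 to 757.9 in control pools.

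Fibre markers moved as well, among other comparisons in walked against control soleus, where Cp and Tfrc were higher. Of 15 slow-fibre probe sets tested, 5 were called higher in walked against control (Myh7 1.06, Myl2 1.94 and 0.60, Tnni1 0.58 and Myl3 0.58) and 1 lower (Tpm3 -1.71), and arrays of 13 did not overlap. Over all tested probe sets 4.46% were called higher and 4.61% lower in that comparison, and 43.0% did not overlap. In unloaded against control soleus 1 slow-fibre probe set was lower (Tpm3 -0.95), where 3.32% of all tested probe sets were. Of 9 fast-fibre probe sets 2 were lower in walked against unloaded (Myh2 -0.64 and Tnni2 -0.83), where 1.47% of all tested probe sets were. With unloading 0 of the 9 were called. At an unadjusted p under 0.05 (limma) 4 of them were higher with unloading and 0 lower, with a median log2 fold change of 0.35. The part of these cells in the values of the iron genes was not tested.

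Other genes of iron and heme handling were taken from a list of 129 made from general knowledge of the pathway. The list was made with earlier results of these arrays known, and the p-values of its genes carry that limit. Of the 129, 48 genes had single-symbol probe sets and 43 a tested one, 73 probe sets in all. In unloaded against control soleus 0 were called higher and 4 lower, with a median log2 fold change of -0.07. In walked against unloaded soleus 3 were called higher and 0 lower (median 0.02), and in walked against control soleus 4 higher and 0 lower (median -0.07). Over all tested probe sets 3.99% were called higher and 3.32% lower with unloading. The called shares were 2.73% and 1.47% in walked against unloaded soleus, and 4.46% and 4.61% in walked against control soleus. At an unadjusted p under 0.05, 6 of the list were higher and 10 lower with unloading, 9 were higher and 4 lower in walked than in unloaded soleus, and 8 were higher and 7 lower in walked than in control soleus. Over all tested probe sets the shares at that threshold were 9.19% higher and 12.3% lower with unloading, 6.98% and 10.5% in walked against unloaded soleus, and 9.17% and 15.5% in walked against control soleus. With unloading the list had 8.22% higher and 13.7% lower, shares near that background. In walked against unloaded soleus the list had 12.3% higher and 5.48% lower, so more higher than lower, the reverse of the background. In walked against control soleus the list had a larger share higher than the background and a smaller share lower (9.59%). Whether these shares differ from the background was not tested. The median over all tested probe sets was -0.11 in walked against control.

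Among genes of heme synthesis, Alas1, the rate-limiting enzyme outside red cells, fell on 1 of 2 probe sets in unloaded soleus. That probe set (J03190_at) had 310.6 and 438.6 in walked pools, 291.8, 240.4 and 275.1 in unloaded pools, and 475.0, 401.7 and 436.7 in control pools. Unloaded arrays lay below all others, and walked and control arrays overlapped. Unloaded against control had a log2 fold change of -0.70 ± 0.16 (limma adjusted p = 0.0219). The other had -0.38 ± 0.16 (limma adjusted p = 0.185). The fall was no longer called without control pool 1 (-0.64) or unloaded pool 2 (-0.62). Of 11 tested probe sets of this list no other was called.

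Among heme proteins and their partners, 2 of 23 probe sets fell with unloading, both of Cyb5r3, the reductase of cytochrome b5 (-0.53 ± 0.13, limma adjusted p = 0.0326, and -0.85 ± 0.22, limma adjusted p = 0.0401). Its 3 other probe sets had -0.52, -0.28 and -0.20. The first lost its call when unloaded pool 1, unloaded pool 2 or any 1 control pool was left out (-0.59 to -0.49). The second lost it on leaving out either walked pool (-0.85), control pool 2 (-0.88) or 3 (-0.68), or unloaded pool 1 (-0.88) or 2 (-0.67). The iron transport list holds targets of the bone morphogenetic protein pathway that sets hepcidin in liver. Of its 14 probe sets 1 was lower in unloaded than in control soleus and higher in walked than in unloaded soleus. This was 1 of 2 probe sets of Id1, an inhibitor of helix-loop-helix transcription factors. It had 431.3 and 430.6 in walked, 96.4, 123.1 and 108.1 in unloaded, and 294.8, 271.2 and 313.8 in control pools, with no overlap. The log2 fold change was -1.43 ± 0.15 for unloaded against control (limma adjusted p = 0.000151) and 1.99 ± 0.16 for walked against unloaded (limma adjusted p = 2.6e-05), and -0.38 and 0.20 on its other probe set.

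Mafk was higher in walked soleus. It is a small Maf protein that pairs with Bach1 or Nfe2l2 at the Hmox1 gene. Its signal was 322.3 and 507.0 in walked, 189.4, 241.3 and 195.1 in unloaded, and 225.8, 179.6 and 236.3 in control pools, a log2 fold change of 0.97 ± 0.22 against unloaded soleus (limma adjusted p = 0.0320) and 0.93 ± 0.22 against control soleus (limma adjusted p = 0.0272). Walked arrays stood above all others, but the first call was lost without unloaded pool 1 (0.90) or 3 (0.92) or walked pool 2 (0.64), and the second without control pool 2 (0.81) or walked pool 2 (0.60). The 2 probe sets of Nfe2l2 were not called, at -0.25 and -0.03 against unloaded soleus, and neither was biliverdin reductase Blvra (0.08), which acts after heme oxygenase.

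Zfp36 and Zfp36l1, which bind AU-rich elements and hasten decay of transcripts, were in the list for iron regulation. Zfp36l1 rose in walked against control soleus on both probe sets (1.28 ± 0.22, limma adjusted p = 0.00597, and 0.98 ± 0.26, limma adjusted p = 0.0388) and in walked against unloaded soleus on 1 (0.90 ± 0.22, limma adjusted p = 0.0429). Zfp36 rose in walked against control soleus on 1 of 2 probe sets (1.54 ± 0.32, limma adjusted p = 0.0159), with 0.14 on the other. Without walked pool 2 all 3 of these walked against control calls were lost (1.27, 0.78 and 1.26). The weaker Zfp36l1 probe set also lost its call there without any 1 control pool, unloaded pool 1 or walked pool 1 (0.96 to 1.18), and the call against unloaded soleus was lost without any 1 array but control pool 3 or unloaded pool 2 (0.66 to 0.96). No probe set was called among 11 for iron-sulfur cluster assembly by limma, where the median log2 fold change was -0.07 with unloading against control, -0.16 with walking against unloading and -0.31 with walking against control. At an unadjusted p under 0.05 there was 1 higher in unloaded than in control soleus, and 1 higher and 3 lower in walked than in control soleus (9.09% and 27.3% of the 11, where all tested probe sets had 9.17% and 15.5%). The exporter ferroportin (Slc40a1) had log2 fold changes of 0.97 with unloading against control, -0.77 with walking against unloading and 0.19 with walking against control on its tested probe set, none called.

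**Figure D4:**
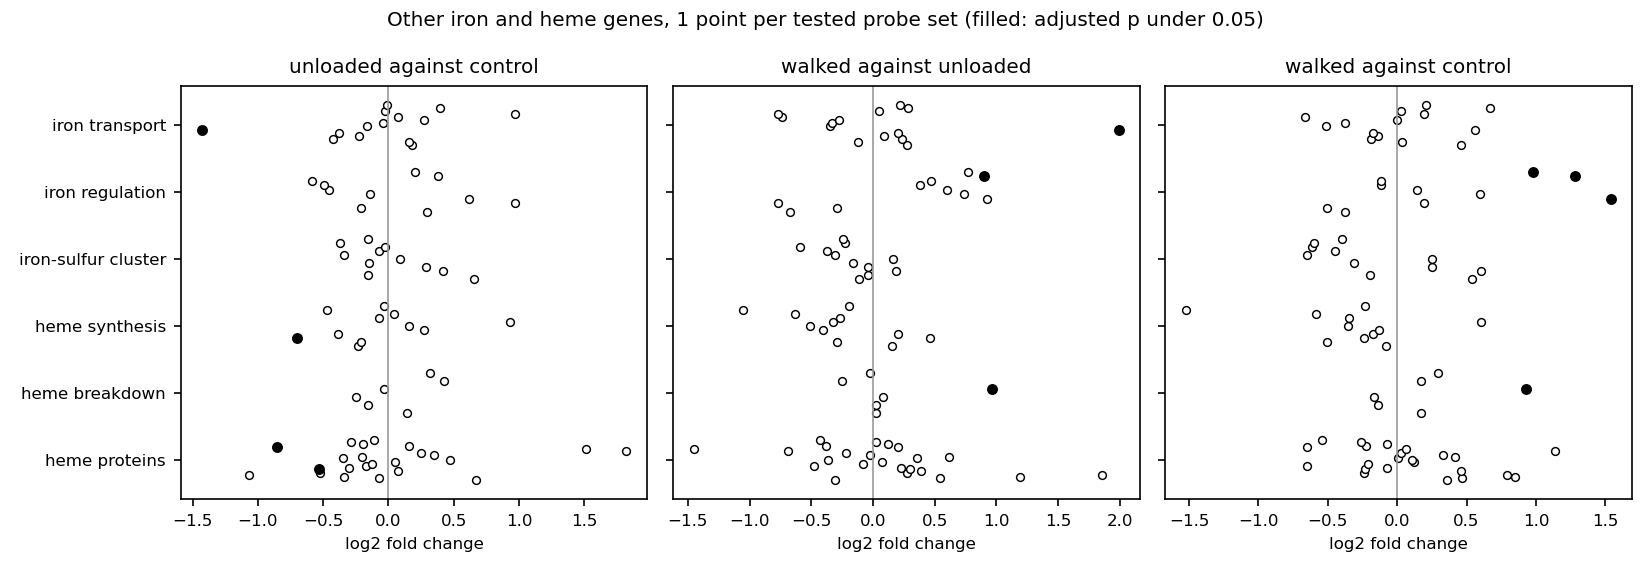
Log2 fold change of each tested probe set of the other iron and heme genes, by list, in the 3 comparisons; filled points had an adjusted p under 0.05. The called points are 4 lower in unloaded against control, 3 higher in walked against unloaded and 4 higher in walked against control.

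The probe sets most similar to Tfrc, Cp and Hmox1 over the 8 arrays were found by the root mean square difference of log2 signals, each centred on its own mean. Nearest to Tfrc were 2 probe sets of the translation initiation helicase Eif4a2 (0.64 and 0.68), then Dcn, a proteoglycan (0.74), Ogt, the O-GlcNAc transferase (0.75), and the complex I subunit Ndufs1 (0.76). Their log2 fold changes of walked against unloaded were -0.29 to 0.43, where that of Tfrc was 0.81. Nearest to the brightest Cp probe set were Atp5pf, a subunit of ATP synthase (0.09), Urgcp (0.16), Ptp4a1 (0.17), the ribosomal protein gene Rps29 (0.17) and the slow myosin gene Myh7 (0.19). Nearest to the brighter Hmox1 probe set were Tcp11l2 (0.30), the angiogenic factor Vegfa (0.40), the nucleolar protein Gnl3 (0.40), the AP-1 subunit Junb (0.41) and the kinase Sgk1 (0.41). Tcp11l2 had a mean signal of 1860 in walked, 498 in unloaded and 436 in control pools.

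**Figure D5:**
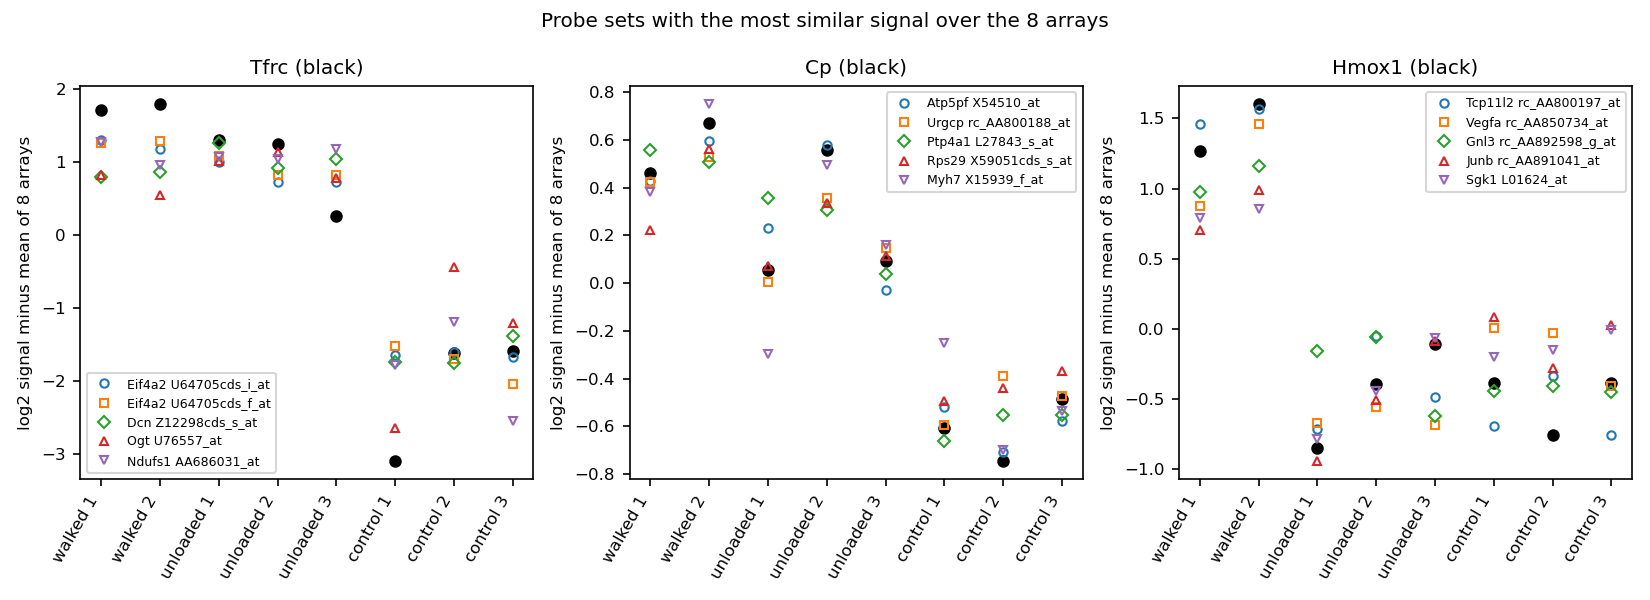
Centred log2 signal (y axis) on each of the 8 arrays (x axis) for Tfrc, Cp and Hmox1 in black and the 5 most similar probe sets of other genes in open symbols. Tfrc lies above its neighbours in walked pool 1 and walked pool 2, while the neighbours of Cp lie close to it, at root mean square differences of 0.09 to 0.19.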

How the data were processed

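Biotin-labelled cRNA from 10 microg total RNA of each pool was hybridised to 1 one-colour Affymetrix array, per the labels. The deposited files hold a linear signal intensity per probe set; MAS5 is the tool named, per the submitters' processing notes, its version and scaling target both not given in the sources used here. The deposited trimmed means were 148.3 to 148.8, so arrays had been scaled. Each was rescaled to 148.6 (2% trimmed), values under the 10th percentile (4.10) were set to it, log2 was taken, and probe sets under the 40th percentile of mean signal (25.8) were left out. The linear model of limma 3.58.1 (R 4.3.3) with 3 group levels was fitted to all 8 arrays (lmFit, eBayes with trend, two-sided), with Benjamini-Hochberg adjustment over 5244 probe sets, and was tested on simulated data. With 3 pools against 3, an exact permutation test of 1 gene cannot go below p = 0.1. The number of arrays limits the precision.

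The genes and lists were chosen with earlier results of these arrays known. Named genes are all probe sets of the 10 genes, up to 4 called probe sets per wider list and comparison by smallest p, and the 5 nearest probe sets of other genes. Nfe2l2, Blvra, Slc40a1 and the probe sets with several symbols were named after their values were seen. Of 8740 probe sets, 7006 had 1 symbol, 308 several and 1426 are unnamed here. Alternatives changed normalization, floor, filter, variance model, samples, pairing and each array.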

Additional observations from a re-analysis of the deposited data

How the results depend on the processing

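For the iron genes, the fits of the alternatives gave no called value of the opposite sign. The count of iron gene probe sets called in unloaded against control was 4, and 1 with no filter and 1 with the filter at the 60th percentile, which removes Tfrc, Ireb2 and 2 of the Cp probe sets; in walked against control it was 5, and 3 with that filter. Without 1 array the counts were 1 to 4 in unloaded against control, 2 to 3 in walked against unloaded (3 with all arrays) and 3 to 6 in walked against control. Over all probe sets, 383 were called in unloaded against control (228 with no filter, 243 without a trend, 230 to 404 without 1 array, lowest without unloaded pool 1 or 2), 220 in walked against unloaded (120 to 263, lowest without walked pool 1 or 2) and 476 in walked against control (216 with no filter, 211 without a trend, 251 with the replicate block, 105 to 503, under the main count by over 1.5 times without walked pool 1 or 2 or control pool 2 or 3). In the wider list the counts were 4 in unloaded against control (2 with no filter, 1 without a trend, 1 to 7 without 1 array, moved by control pools 2 and 3 and each unloaded pool), 3 in walked against unloaded (1 with no filter, 1 with the replicate block, 1 to 3, lowest without unloaded pool 3 or walked pool 2) and 4 in walked against control (1 with no filter, 7 with the filter at the 60th percentile, 1 without a trend, 2 with the block, 0 to 4, moved by control pool 2 and walked pool 2). With no filter the calls of Ireb2, Cp in unloaded against control, Alas1, Mafk, Zfp36, 1 of the Cyb5r3 probe sets and 2 of the 3 Zfp36l1 calls were lost, and without a trend those of Aco1, the dimmer Cp probe set, Alas1, Mafk, Zfp36, both of Cyb5r3 and 2 of the 3 of Zfp36l1. Quantile normalization ended both Cyb5r3 calls and that of Zfp36l1 against unloaded soleus, a fit of only the groups compared ended those of Cp L33869_at and 1 of Cyb5r3 in unloaded against control, and the block ended those of Aco1 (-0.75), Ireb2 in walked against control (1.40), Mafk and 2 of Zfp36l1. Apart from the filters, whose construction removes or adds dim probe sets, the cause was not tested. Pools of the same number did not deviate together (correlations of deviations -0.07 to 0.05), so the block is a check only; with it 4, 2 and 4 iron gene probe sets were called. Low signals limit Tfrc and Cp in control pools.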
